A study of Mus musculus with 15 samples.

Results

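Weakly and strongly adherent cells whose libraries carry the same number in their titles were compared within that number. Of the 15 libraries of the series, 8 entered this comparison: the weakly and the strongly adherent library of the title numbers 4, 5, 6 and 9, which are the numbers that hold both classes. Every library was bulk mRNA from primary tumours that had grown in Nod/Skid mice and were dissociated to cells. The cells are labelled GFP+ Luc+ MDA-MB-231, an established line of human breast cancer that lacks the receptors for oestrogen and progesterone and amplified HER2. Weakly adherent cells are those labelled with a shear of 10 dyn per cm2, and strongly adherent cells those labelled with 50 dyn per cm2. Unsorted cells of the same numbers, with a shear of 0, served as a reference in description only. What the number stands for is not in the labels, and neither is whether libraries came from different animals. The p-values below therefore cover just the spread among these libraries, part of which may be technical.

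Cells hold on to the matrix around them through integrins, receptors that span the membrane and bind collagen, laminin or fibronectin outside the cell. Inside, adaptors such as talin, kindlins and paxillin tie integrins to actin in focal adhesions, where kinases read the pull on the bond. Epithelial cells also hold on to each other through cadherins and desmosomes, and tumour cells that lose these contacts and raise matrix proteases are described as more motile.

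Total counts of the 8 libraries ranged from 30577919 in strongly adherent library 9 to 45434799 in weakly adherent library 4. The labelled line was checked against its known genes. CDKN2A and CDKN2B, which this line has lost by deletion, had 0 counts in all 8 libraries, and vimentin (VIM) was present in each at 1149 to 7514 CPM (counts scaled by TMM to a common library size). The gene for E-cadherin, CDH1, which the line in culture is known to keep silent, was at 103 CPM or more in 6 of the 8 libraries and at 0.265 and 5.65 CPM in both libraries of number 6. NKX2-1, a transcription factor of lung and thyroid epithelium, showed the same split, with 9.89 to 45.5 CPM in those 6 libraries against 0 and 0.406 CPM in number 6. The 6 libraries thus depart from what the line is known for, whether they hold the labelled line alone was not tested, and every epithelial and lung value below carries that doubt.

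Both libraries of number 6 thus stood apart from the others in their epithelial genes, and strongly adherent library 5 stood apart in muscle genes. The striated muscle list summed to 3650 CPM in strongly adherent library 5, to 641 and 360 CPM in the strongly and weakly adherent libraries of number 6, and to between 139 and 182 CPM in the remaining 5. Skeletal alpha-actin (ACTA1) alone was at 869 CPM in strongly adherent library 5 and at 1.52 CPM or less in the 5 libraries outside it and number 6. The part of muscle RNA in the differences of numbers 5 and 6 was not tested. In bulk RNA, fewer cells of a type and less RNA per cell cannot be told apart.

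Across the 4 pairs, edgeR's quasi-likelihood test with the number as a block called 0 of 14749 genes (0%) at an adjusted p under 0.05. The smallest adjusted p was 0.841, and 647 genes had an unadjusted p under 0.05, of which 357 were higher and 290 lower in weakly adherent cells. Without the pair of number 6, edgeR called 0 of 14873 genes (0%), and 903 had an unadjusted p under 0.05. DESeq2 with the same block called 11 genes over the 4 pairs and 74 without number 6, while limma voom and limma-trend called 0 over the 4 pairs. A test of whether the weakly minus strongly difference of number 6 departed from that of the others called 0 genes in edgeR (0%), where 1119 had an unadjusted p under 0.05, and 129 genes in DESeq2.

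The description therefore rests on the sign of the difference in each number. Differences are of log2 CPM with a prior count of 2, weakly minus strongly. Weakly adherent cells were higher in 4 of 4 numbers at 894 genes (6.06% of those tested) and lower in 4 of 4 at 813 genes (5.51%). Without number 6 the counts were 1921 genes higher in 3 of 3 (13%) and 1844 lower in 3 of 3 (12.5%). Scaled by DESeq2 size factors the balance turned, to 790 higher and 904 lower in 4 of 4, and to 1645 higher and 2123 lower in 3 of 3. The TMM-scaled shares are the background for every count of list members below. Only 115 genes were higher, and 129 lower, by at least 0.25 in each of the 4 numbers.

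The 4 numbers did not share one direction across genes. Over the 14749 genes, the differences of numbers 4 and 5 had a Pearson correlation of 0.47, and 64.5% of genes had the same sign in both. Number 9 correlated at -0.16 with number 5 and at -0.05 with number 4, and shared the sign with number 5 at 39.2% of genes. Number 6 correlated at -0.04, -0.09 and 0.06 with numbers 4, 5 and 9. These are descriptions across genes, which are not independent replicates, but no library is shared between 2 numbers. The size of the differences also varied: their median absolute value was 0.35 in number 5, 0.29 in number 6, 0.25 in number 4 and 0.18 in number 9, and 2105 genes in number 5 against 518 in number 9 differed by more than 1.

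**Figure D1:**
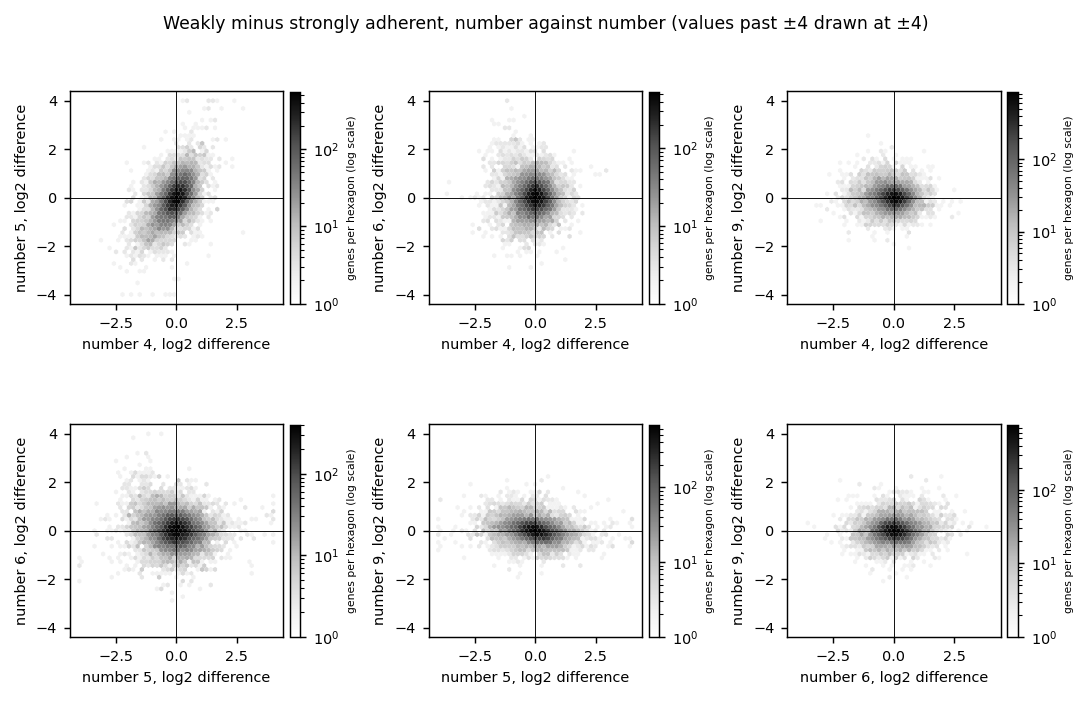
Weakly minus strongly adherent log2 difference of each gene in one number (x axis) against another (y axis), for the 6 pairs of numbers, with shading for genes per hexagon on a log scale. The cloud of numbers 4 and 5 is drawn out along the diagonal (correlation 0.47), and that of numbers 5 and 9 leans the other way (-0.16).

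The signs of 3 numbers gave limited information on the remaining one. Of the 1921 genes higher in numbers 4, 5 and 9, 894 (46.5%) were also higher in number 6, where 52.2% of all genes were. Of the 1844 lower in those numbers, 813 (44.1%) were lower in number 6, against 47.6% of all genes. When number 4 was the one set aside, 66.3% of genes higher in the other numbers were higher there too, against 49.4% of all genes. When number 9 was set aside the share was 36.9%, against 51% of all genes.

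Number 7-8, which has a weakly adherent and an unsorted library but no strongly adherent one, entered none of these choices. Weakly adherent cells were above unsorted cells there at 50.8% of genes and below at 49.2%. Of the 894 genes higher in 4 of 4 numbers, 424 (47.4%) were above unsorted in number 7-8, and of the 813 lower genes, 405 (49.8%) were below. Both shares lie near the background. The contrast is also another one, since unsorted cells stand in place of strongly adherent cells.

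The receptors of matrix adhesion were measured first among the gene lists. Of 19 integrin genes tested, 2 were higher in 4 of 4 numbers, ITGB5 and ITGB1, and 0 were lower. ITGB5, the beta subunit that pairs with alpha V to bind vitronectin, was at 174, 145, 228 and 214 CPM in strongly adherent libraries 4, 5, 6 and 9, and at 298, 296, 255 and 252 CPM in the weakly adherent libraries of those numbers. Every weakly adherent library was above every strongly adherent one. The fitted log2 fold change was 0.55 ± 0.17 (SE, n = 4 pairs; edgeR adjusted p = 0.949). ITGB1, the beta subunit shared by most collagen and laminin receptors, was at 1149, 1029, 1185 and 1161 CPM in strongly and 1598, 1166, 1308 and 1556 CPM in weakly adherent libraries. The classes overlapped for ITGB1, as weakly adherent library 5 lay below strongly adherent library 6. How many of all genes were without overlap between the classes was not counted, here or for the genes below. Naming genes by one sign in 4 of 4 numbers also favours such a lack of overlap.

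Without number 6, the count of integrins higher in 3 of 3 was 6 of 19 (31.6% against 13% of all genes), with ITGA1, ITGA3, ITGB3 and ITGB4 added. ITGA1, a collagen-binding alpha subunit, differed by 0.39, 1.74 and 0.997 in numbers 4, 5 and 9 and by -0.69 in number 6. ITGB3, which binds vitronectin and fibrinogen with alpha V, differed by 1.12, 3.25 and 0.37 in those numbers and by -0.34 in number 6. For ITGB4, the laminin receptor subunit of hemidesmosomes, the differences in numbers 5 and 9 were 0.01 or less. The median of the integrin list was 0.17 in the fit over the 4 pairs, where the median of all genes was 0.01.

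Adaptors and kinases of focal adhesions stood close to the background, with 3 of 41 higher (7.32%) and 1 of 41 lower (2.44%) in 4 of 4 numbers. DOCK1, an exchange factor that activates RAC1 downstream of integrins, was at 55.5, 51.1, 56.6 and 58.4 CPM in strongly and 80.6, 66.1, 65.8 and 68.8 CPM in weakly adherent libraries 4, 5, 6 and 9, without overlap. FERMT1, a kindlin that helps activate integrins, differed by 0.84, 0.18, 0.71 and 0.15. BCAR1, the scaffold p130Cas that is stretched at adhesions, was the lower member, with differences of -0.17, -0.32, -0.07 and -0.08. Without number 6, 12 of 41 were higher (29.3%) and 5 lower (12.2%).

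Of 38 actomyosin genes tested, 0 were higher and 6 lower in 4 of 4 numbers (15.8% against 5.51% of all genes), and 0 were lower by at least 0.25 in each. In the fit over the 4 pairs the list as a whole did not lean lower, with 25 of 38 above 0 and a median of 0.05. By number the medians were -0.01, -0.13, 0.11 and -0.04 in numbers 4, 5, 6 and 9, with 19, 14, 20 and 14 of 38 higher. With number 6 left out the fitted median was -0.04, and 3 were higher (7.89%) and 8 lower (21.1%) in 3 of 3. RHOB, a stress-inducible small GTPase, was at 275, 173, 308 and 120 CPM in strongly and 243, 155, 175 and 104 CPM in weakly adherent libraries. ACTG1, cytoplasmic gamma-actin, differed by -0.20, -0.32, -0.06 and -0.23. TPM1 and TPM2, tropomyosins that muscle also makes in quantity, differed by -2.61 and -3.33 in number 5, the number whose strongly adherent library held the muscle RNA. TPM1 differed by -0.10, -0.11 and -0.09 in numbers 4, 6 and 9. Cortactin (CTTN), which binds branched actin in protrusions, was at 227, 257, 220 and 234 CPM in strongly and 204, 211, 187 and 196 CPM in weakly adherent libraries, so the classes did not overlap (log2 fold change -0.23 ± 0.11, SE; edgeR adjusted p = 0.949).

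Genes of cell to cell contact were lower in weakly adherent cells of numbers 4 and 5 and not in the other numbers. The median difference of the 31 cadherin and junction genes was -0.62 in number 4, -0.92 in number 5, 0.42 in number 6 and 0.14 in number 9, and 2 were higher and 2 lower in 4 of 4 numbers, near the background. CDH1 was at 326 CPM in strongly and 117 CPM in weakly adherent library 4, and at 552 against 103 CPM in number 5. In number 9 the values were 115 and 127 CPM, and in number 6 they were 0.265 and 5.65 CPM. The fitted difference of CDH1 was -0.42 ± 1.09 (SE) over 4 pairs and -1.27 ± 0.50 without number 6.

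DSP, desmoplakin, which links desmosomes to keratin filaments, kept one sign. It was at 502, 658, 201 and 311 CPM in strongly and 325, 292, 153 and 267 CPM in weakly adherent libraries 4, 5, 6 and 9, and the classes overlapped, also with number 6 aside, as weakly adherent library 4 was above strongly adherent library 9. Its log2 fold change was -0.60 ± 0.17 (SE; edgeR adjusted p = 0.949). CDH11, a cadherin of mesenchymal cells, had differences of 0.37, 0.14, 0.50 and 0.28.

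Epithelial identity genes showed the same division more strongly. The median difference of the 26 genes was -1.18 in number 4 and -1.61 in number 5, against 0.77 in number 6 and 0.09 in number 9, and only 1 of 26 was higher in number 4 and 1 of 26 in number 5. In number 6 the epithelial list summed to 3690 CPM in strongly and 3910 CPM in weakly adherent cells. The median there gives genes of low count the same weight as abundant ones. Over 4 of 4 numbers 0 were higher and 2 lower (7.69%), ESRP2 and KRT7, while 10 of 26 (38.5%) were lower in 3 of 3 without number 6, against 12.5% of all genes. KRT5, a basal keratin, was at 12.1, 10.0 and 5.20 CPM in strongly and 2.81, 1.24 and 2.29 CPM in weakly adherent libraries 4, 5 and 9, without overlap. In number 6 KRT5 was at 0.027 and 0.187 CPM, which leaves little to compare. ELF3, an epithelial transcription factor, differed by -1.16, -1.70 and -0.45 in numbers 4, 5 and 9 and by 0.84 in number 6.

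Genes of lung epithelium had median differences of -1.38, -1.60, 0.57 and -0.47 in numbers 4, 5, 6 and 9, so number 9 was below 0 here and not for the epithelial genes. The median of number 6 includes genes under 1 CPM in both of its libraries, such as SFTPB, whose sign there cannot be read. Of the 12 lung lineage genes tested, 7 (58.3%) were lower in 3 of 3 numbers without number 6, and 2 were lower and 1 higher in 4 of 4. SFTPB, a surfactant protein, was at 169, 66.6 and 40.6 CPM in strongly and 55.9, 22.1 and 23.5 CPM in weakly adherent libraries 4, 5 and 9, and at 0.292 and 0.437 CPM in number 6. HOPX, a homeodomain cofactor found in alveolar cells, was lower in 4 of 4, with differences of -1.57, -0.93, -1.40 and -0.24. The higher member, ABCA3, the lipid transporter of lamellar bodies, was at 17.0, 14.1, 19.6 and 22.8 CPM in strongly and 29.1, 24.4, 30.6 and 52.0 CPM in weakly adherent libraries, without overlap (log2 fold change 0.85 ± 0.14, SE; edgeR adjusted p = 0.841).

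The unsorted libraries of the same numbers gave a reference for these sums. The lung lineage list summed to 418 CPM in strongly adherent library 4, 185 in unsorted library 4 and 186 in weakly adherent library 4. In number 5 the sums were 348, 170 and 155 CPM in the same order, so in both numbers the strongly adherent library was the one away from the unsorted cells. The epithelial identity list gave another order in number 4, at 10300, 9020 and 7030 CPM, and the same one in number 5, at 12400, 8150 and 5710 CPM. In number 9 the lung lineage sums were 165, 109 and 163 CPM, and in number 6 they were 70.4, 62.5 and 84.8 CPM. High sums were not limited to strongly adherent cells. Outside these numbers the list summed to 508 CPM in unsorted and 248 CPM in weakly adherent library 7-8, and to 356 CPM in weakly adherent library 10. Within number 7-8, 24 of 26 epithelial genes and 11 of 12 lung lineage genes were lower in weakly adherent than in unsorted cells, with medians of -0.47 and -0.84.

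**Figure D2:**
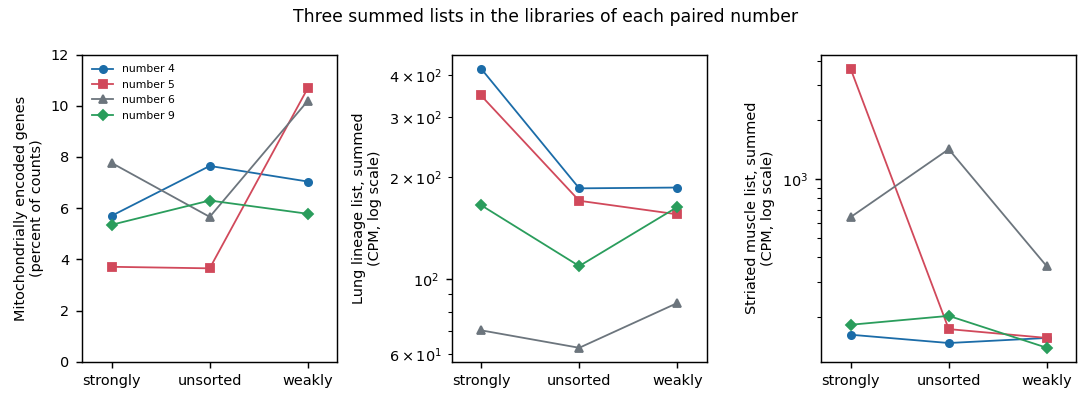
Share of counts on mitochondrially encoded genes, and summed CPM of the lung lineage and striated muscle lists, in the strongly adherent, unsorted and weakly adherent library of numbers 4, 5, 6 and 9 (1 point per library, lines join one number). Among the libraries drawn, the lung lineage sum is highest in strongly adherent libraries 4 and 5 (418 and 348 CPM), and the muscle sum in strongly adherent library 5 (3650 CPM).

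Markers of other cell types were listed beside these. Of 11 endothelial markers tested, 10 were fitted above 0, with median differences of 1.03, 1.23, 0.03 and -0.05 in numbers 4, 5, 6 and 9, and 2 were higher in 4 of 4, ROBO4 and TEK. In number 5 the endothelial list summed to 53.5 CPM in strongly and 252 CPM in weakly adherent cells, and in numbers 6 and 9 it summed to 348 and 262 CPM against 352 and 270 CPM, while its defining marker VWF was at 0.211 CPM or less. Of 7 myeloid markers tested, 7 were fitted above 0 and 0 had one sign in 4 of 4, with sums of 136, 145, 246 and 178 CPM in strongly and 195, 172, 365 and 180 CPM in weakly adherent libraries. The part of these lists in the epithelial differences was not tested.

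Matrix proteins stood near the background, with 2 of 37 higher in 4 of 4 numbers, COL4A1 and COL6A2, and 0 lower. Matrix proteases and their inhibitors had 7 of 31 higher (22.6% against 6.06% of all genes) and 1 lower. With number 6 left out, 8 were higher (25.8% against 13%) and 3 lower in 3 of 3. The list median was 0.21, -0.12, 0.23 and 0.13 in numbers 4, 5, 6 and 9. MMP14, the membrane-bound metalloproteinase that cuts collagen at the cell surface, was at 1335, 1079, 1341 and 1580 CPM in strongly and 2197, 2025, 1944 and 1817 CPM in weakly adherent libraries 4, 5, 6 and 9. All 4 weakly adherent libraries were above all 4 strongly adherent ones, and the log2 fold change was 0.59 ± 0.17 (SE; edgeR adjusted p = 0.949). PLAU, urokinase, was at 1487, 1269, 853 and 1379 CPM in strongly and 1991, 1371, 1634 and 1776 CPM in weakly adherent libraries, with overlap.

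The receptor of urokinase, PLAUR, had small differences of one sign, 0.32, 0.16, 0.39 and 0.13. MMP11, ADAM8, and the lysosomal cathepsins CTSD and CTSL were the other higher members, none by 0.25 or more in each number. MMP7, matrilysin, an epithelial metalloproteinase, was the lower one, at 9.62, 4.40, 1.46 and 3.99 CPM in strongly and 3.06, 2.23, 0.686 and 3.65 CPM in weakly adherent libraries. In number 7-8, weakly adherent cells were above unsorted cells at 1 of the 7 higher proteases and at 4 of all 31, and MMP14 differed by -0.63.

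Of 27 TGF-beta pathway genes, 2 were higher and 2 lower in 4 of 4 numbers, and 9 were higher in 3 of 3 without number 6 (33.3% against 13%). LTBP2, a matrix protein related to the binding proteins of latent TGF-beta, was at 109, 86.7, 119 and 142 CPM in strongly and 207, 154, 180 and 191 CPM in weakly adherent libraries. The classes did not overlap (log2 fold change 0.69 ± 0.13, SE; edgeR adjusted p = 0.949, DESeq2 adjusted p = 0.007). INHBA, the activin A subunit, differed by 1.13, 1.81, 0.33 and 0.01. ID2 and ID3, inhibitors of helix-loop-helix factors that BMP signals induce, were the lower members, with ID2 at -0.67, -0.05, -0.50 and -0.53.

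Genes that RAS and MAPK signals induce went both ways, with 4 of 24 higher and 2 lower in 4 of 4 numbers. EPHA4, an ephrin receptor, was the higher member with the smallest p, with differences of 0.45, 0.43, 0.34 and 0.21. Among ligands of the EGF receptor, AREG was at 14.6, 14.1, 9.13 and 6.26 CPM in strongly and 7.89, 5.79, 4.93 and 5.67 CPM in weakly adherent libraries, and HBEGF differed the other way, by 0.58, 0.33, 0.03 and 0.12. DUSP6, a phosphatase that limits ERK, was lower in each number, by -0.42, -0.29, -0.45 and -0.14. Of the 34 immediate early genes, which dissociation can induce, 4 were lower in 4 of 4 (11.8%), DUSP2, DUSP6, EGR3 and IER5, and 0 were higher. The list as a whole divided by number, with 26 and 22 of 34 higher in numbers 4 and 5 against 4 and 10 in numbers 6 and 9, and 6 higher and 5 lower in 3 of 3 without number 6. FOS had no common sign, with differences of 0.80, -0.88, 0.41 and 0.00.

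The mitochondrial genome held the highest share of members with one sign among the 42 lists described. Of its 13 protein genes, 9 were higher in 4 of 4 numbers (69.2% against 6.06% of all genes) and 0 were lower. With number 6 left out, 9 were higher in 3 of 3 (69.2% against 13%) and 0 lower. An unadjusted edgeR p under 0.05 was found at 9 of 13, against 647 of all 14749 genes. COX1, a core subunit of cytochrome oxidase, was at 13637, 8952, 14151 and 11540 CPM in strongly and 16532, 26565, 17577 and 13059 CPM in weakly adherent libraries 4, 5, 6 and 9. The classes overlapped, since strongly adherent library 6 was above weakly adherent library 9. ATP8, a subunit of ATP synthase, was the member with the largest fitted change, 0.89 ± 0.27 (SE; edgeR adjusted p = 0.949), with differences of 0.69, 1.92, 0.74 and 0.25. The members are cut from shared precursor transcripts, so they are not independent of each other.

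The share of all counts on these genes was 5.70%, 3.71%, 7.77% and 5.35% in strongly and 7.04%, 10.7%, 10.2% and 5.78% in weakly adherent libraries 4, 5, 6 and 9. The difference was 1.34, 6.99, 2.43 and 0.43 percentage points, a mean of 2.80 ± 2.91 (SD, n = 4 pairs). An exact two-sided sign-flip permutation test gave p = 0.13, the smallest that 4 pairs allow. Number 5 set much of the mean, which was 1.4 points without it. The unsorted libraries did not lie below the weakly adherent ones throughout, with 7.65%, 3.65%, 5.66% and 6.30% in numbers 4, 5, 6 and 9. In number 7-8, 13 of 13 members were lower in weakly adherent than in unsorted cells, with a median of -0.19.

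Subunits of the same respiratory complexes that the nucleus encodes did not share that sign. Of 59 such genes, 0 were higher and 0 lower in 4 of 4 numbers. Their median difference was -0.01, 0.27, 0.40 and -0.27 in numbers 4, 5, 6 and 9, with 48 and 57 of 59 higher in numbers 5 and 6 and 2 of 59 in number 9. Cytosolic ribosomal protein genes shared a sign within numbers 5, 6 and 9, but not the same sign in each. Weakly adherent cells were higher at 74 of 75 in number 5 and 75 of 75 in number 6, at 27 in number 4 and at 0 in number 9. Their share of counts differed by -0.62, 1.37, 1.41 and -1.01 percentage points (exact sign-flip permutation p = 0.75).

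Cholesterol and fatty acid synthesis had 8 of 33 genes higher in 4 of 4 numbers (24.2% against 6.06%) and 0 lower. Of the 33, 10 had an unadjusted edgeR p under 0.05, against 647 of all 14749 genes, and the median in the fit was 0.17. INSIG1, the sterol-induced brake on SREBP processing, was at 35.5, 21.7, 49.0 and 44.7 CPM in strongly and 54.9, 34.9, 71.1 and 53.4 CPM in weakly adherent libraries 4, 5, 6 and 9. The classes overlapped, because number 5 was low in both, and the log2 fold change was 0.52 ± 0.12 (SE; edgeR adjusted p = 0.949). SQLE, squalene epoxidase, differed by 0.46, 0.26, 0.26 and 0.45.

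SREBF2, the transcription factor that drives the sterol genes, differed by 0.70, 0.56, 0.22 and 0.01. SCD and FADS1, desaturases of fatty acids, differed by 0.79, 0.35, 0.44 and 0.05 and by 0.57, 0.04, 0.66 and 0.29. Without number 6, 11 of 33 were higher in 3 of 3 (33.3%). In number 7-8, 3 of the 8 were above unsorted cells.

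**Figure D3:**
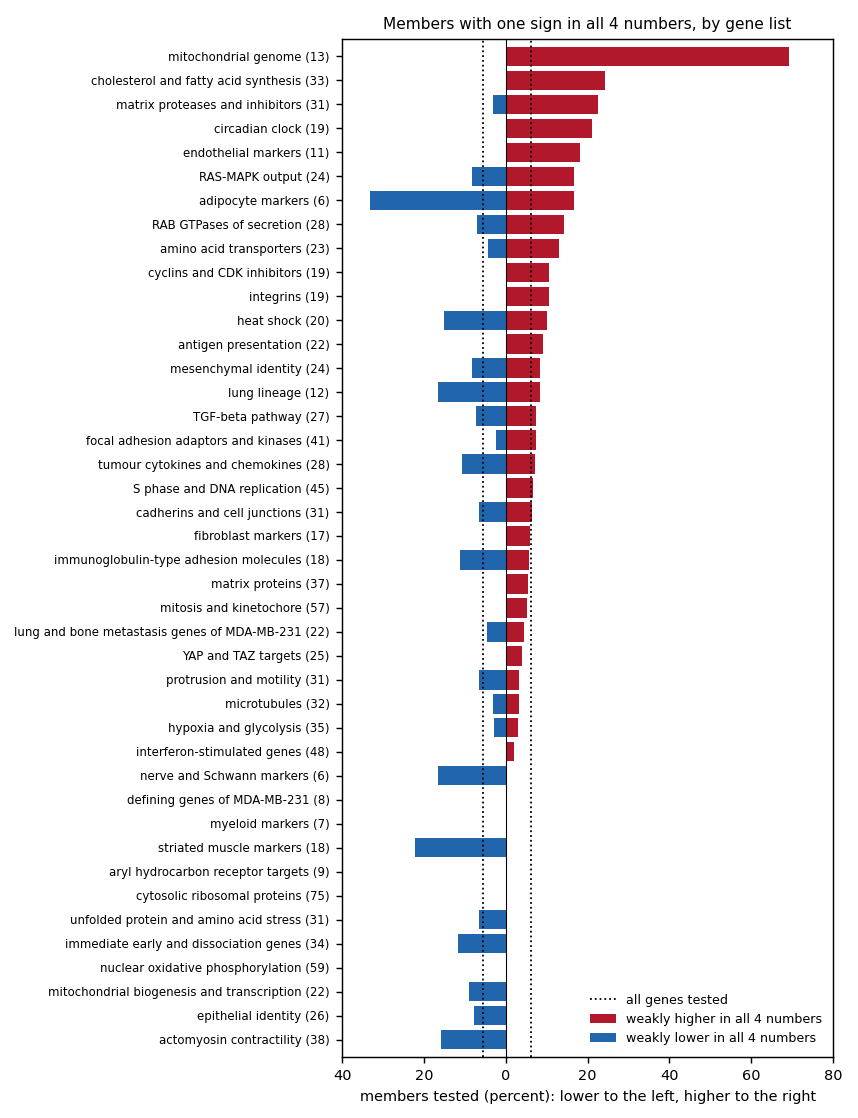
Percent of tested members higher (right) or lower (left) in weakly adherent cells in all 4 numbers, for 42 gene lists with the number of genes tested in brackets, and dotted lines at the shares of all 14749 genes (6.06% and 5.51%). The mitochondrial genome reaches 69.2%, cholesterol and fatty acid synthesis 24.2% and matrix proteases 22.6% on the higher side.

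Growth genes differed by number. Of 45 genes of S phase, weakly adherent cells were higher at 45 in number 6, 28 in number 4, 27 in number 9 and 8 in number 5. The median difference was 0.89 in number 6 and -0.38 in number 5. For the departure of number 6, 33 of 45 had an unadjusted edgeR p under 0.05, against 1119 of all 14749 genes. Of the 33, 0 passed adjustment (smallest edgeR adjusted p = 0.566). MCM2, a subunit of the replicative helicase, was at 34.9 CPM in strongly and 69.6 CPM in weakly adherent library 6. TYMS, thymidylate synthase, kept one sign, at 27.7, 20.7, 19.98 and 36.7 CPM in strongly and 40.5, 37.9, 38.6 and 41.2 CPM in weakly adherent libraries, without overlap. CCNA1, cyclin A1, was also without overlap, at 3.57, 4.55, 3.74 and 5.04 CPM in strongly and 11.1, 7.28, 6.83 and 6.77 CPM in weakly adherent libraries (log2 fold change 0.90 ± 0.25, SE; edgeR adjusted p = 0.949).

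Most interferon-stimulated genes shared a sign within a number, and that sign differed between numbers. Of 48 tested, weakly adherent cells were higher at 7 in number 4 and 5 in number 5, and at 43 in number 6 and 45 in number 9. The medians were -0.44, -0.76, 0.65 and 0.53. MX1, an antiviral GTPase, was at 413, 563, 5.47 and 151 CPM in strongly and 251, 224, 29.5 and 234 CPM in weakly adherent libraries 4, 5, 6 and 9. IFIT2 was the 1 gene of the list higher in 4 of 4 numbers, with differences of 0.55, 0.18, 0.31 and 0.42.

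Genes of hypoxia and glycolysis divided the numbers as well, with 30 and 28 of 35 higher in weakly adherent cells of numbers 4 and 5 against 13 and 6 of 35 in numbers 6 and 9. VEGFA, the vascular growth factor, went against this list in numbers 4 and 5. It was at 375, 268, 279 and 318 CPM in strongly and 241, 237, 181 and 291 CPM in weakly adherent libraries. Clock genes had 4 of 19 higher in 4 of 4 numbers (21.1%) and 7 of 19 without number 6 (36.8%). DBP, an output factor of the clock, was at 5.93, 5.94, 5.25 and 5.04 CPM in strongly and 7.83, 8.80, 9.02 and 6.75 CPM in weakly adherent libraries, without overlap.

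**Figure D4:**
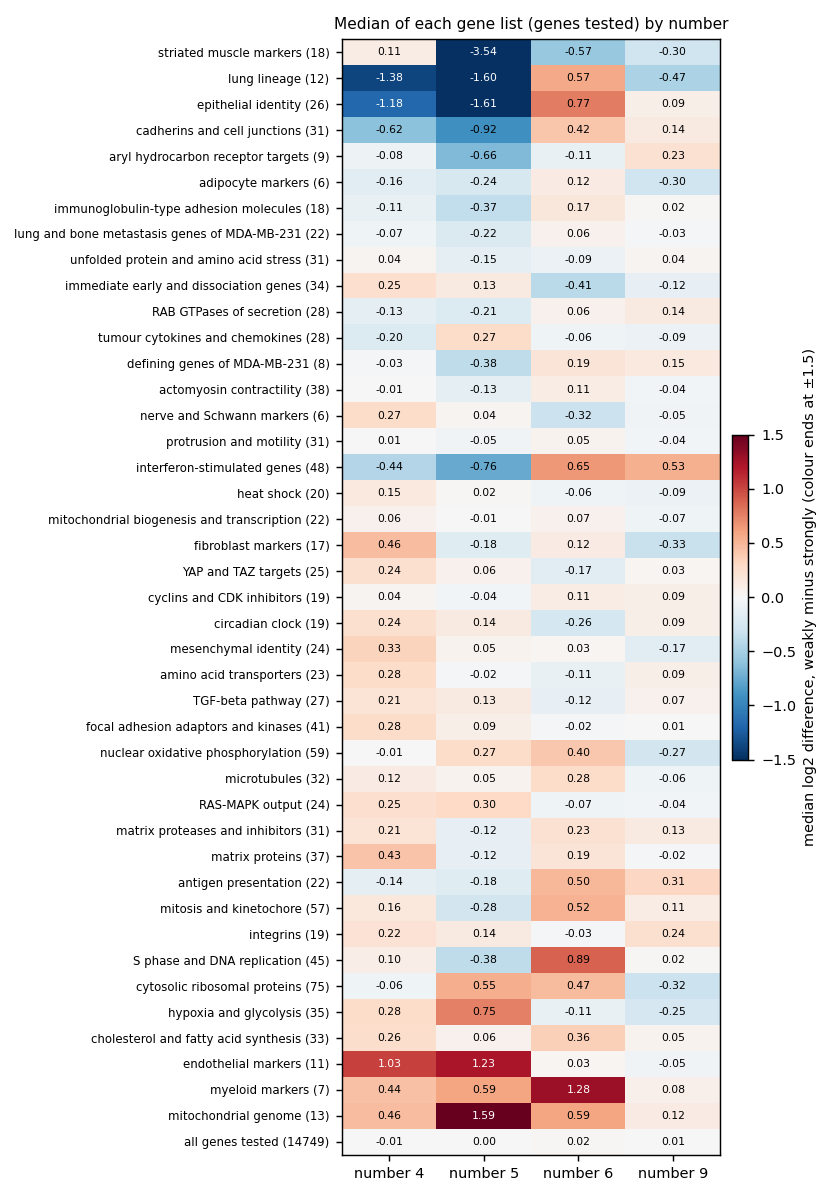
Median log2 difference, weakly minus strongly adherent, of the tested members of 42 gene lists (number of members in brackets) and of all genes, in each of numbers 4, 5, 6 and 9, with colour ending at 1.5. Epithelial and lung lineage lists are below -1 in numbers 4 and 5 and above 0.5 in number 6, where the lung lineage list includes genes under 1 CPM. The interferon list is below 0 in numbers 4 and 5 and above 0.5 in numbers 6 and 9.

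Among single genes, those whose smallest difference over the 4 numbers was largest came from varied families. KISS1, which encodes the kisspeptin peptides and is known as a suppressor of metastasis, was at 2.77, 0.698, 14.4 and 8.59 CPM in strongly and 24.3, 17.4, 36.4 and 21.4 CPM in weakly adherent libraries 4, 5, 6 and 9. The weakly adherent libraries were all above the strongly adherent ones (log2 fold change 2.48 ± 0.65, SE; edgeR adjusted p = 0.949). Outside these 8 libraries KISS1 followed no class, with 51.9 CPM in unsorted library 9, 64.6 CPM in unsorted library 7-8, 15.1 CPM in weakly adherent library 7-8 and 3.02 CPM in weakly adherent library 10.

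ARHGAP30, a GTPase-activating protein, was at 2.62, 1.67, 5.97 and 5.48 CPM in strongly and 21.3, 9.26, 13.3 and 14.9 CPM in weakly adherent libraries. The classes did not overlap, the edgeR log2 fold change was 2.01 ± 0.33 (SE; adjusted p = 0.841), and the DESeq2 adjusted p was 1.64e-05. In number 7-8 it was lower in weakly adherent than in unsorted cells, by -1.48. Other higher genes were NGFR, the low-affinity neurotrophin receptor, with differences of 1.87, 7.60, 1.16 and 1.34, and IL7R, the interleukin 7 receptor, with 0.60, 0.83, 0.68 and 0.94. FGF1, a ligand of the FGF receptors, differed by 0.61, 0.62, 1.81 and 0.86.

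On the lower side, S100P, a calcium-binding protein, was at 4.63, 6.75, 2.60 and 2.09 CPM in strongly and 0.967, 2.54, 0.967 and 0.705 CPM in weakly adherent libraries, with overlap. Its log2 fold change was -1.66 ± 0.29 (SE; edgeR adjusted p = 0.841, DESeq2 adjusted p = 0.000482). STEAP4, a metalloreductase, was at 16.6, 21.5 and 5.48 CPM in strongly and 2.00, 1.69 and 2.69 CPM in weakly adherent libraries 4, 5 and 9, and at 0.133 and 0 CPM in number 6. ATP2A1, TNNT3 and ITGB1BP2 are genes of striated muscle, and strongly adherent library 5 held 297, 86.2 and 5.84 CPM of them against 1.89, 0.536 and 0.169 CPM in weakly adherent library 5. RAB3D, a GTPase of regulated secretion, was at 27.1, 33.8, 38.4 and 24.5 CPM in strongly and 18.2, 19.9, 23.0 and 19.7 CPM in weakly adherent libraries. RAB3D did not overlap between the classes (log2 fold change -0.60 ± 0.14, SE; edgeR adjusted p = 0.949).

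**Figure D5:**
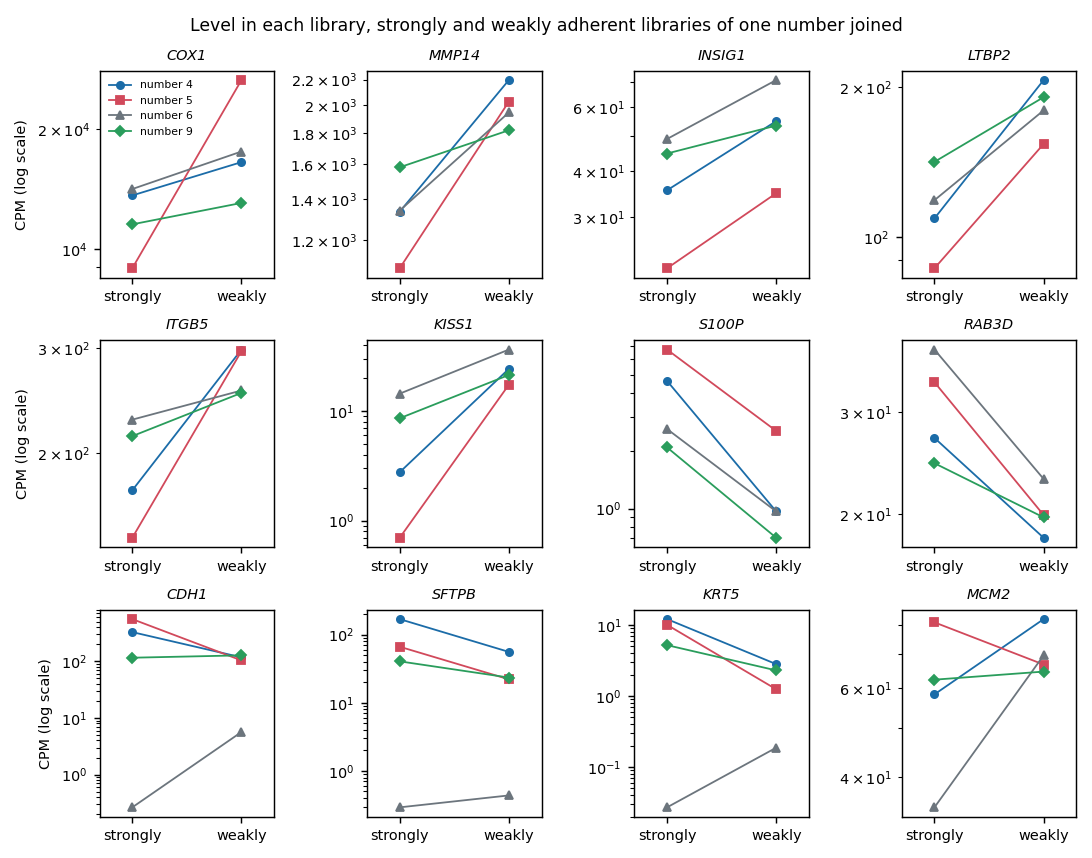
CPM on a log scale of 12 genes in the strongly and weakly adherent library of numbers 4, 5, 6 and 9, with a line for each number. COX1, MMP14, INSIG1, LTBP2, ITGB5 and KISS1 are higher and S100P and RAB3D lower in the weakly adherent library of all 4 numbers. CDH1 and MCM2 differ in direction between numbers. SFTPB and KRT5 are lower in numbers 4, 5 and 9, and under 1 CPM in number 6, where their direction cannot be read.

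The 11 genes that DESeq2 called over the 4 pairs were 5 higher and 6 lower in weakly adherent cells. Of the 11, 9 had one sign in 4 of 4 numbers, where 6.06% of all genes were higher and 5.51% lower. The calls came from the same libraries, so these shared signs are no separate support for them. Of these 9, 7 reached 1 CPM in number 6, and STEAP4 and IRX2 did not, so their sign there cannot be read. The higher genes were ARHGAP30, ABCA3, LTBP2, VAT1L and SH2D2A, and the lower ones CEACAM6, STEAP4, S100P, MYH14, AQP3 and IRX2. CEACAM6, an epithelial adhesion molecule, and MYH14, a non-muscle myosin, were at 0 CPM in both libraries of number 6, so 3 numbers bore on them. CEACAM6 was at 5.98, 22.8 and 2.99 CPM in strongly and 0.898, 2.79 and 0.881 CPM in weakly adherent libraries 4, 5 and 9. Of the 11, 6 had the same sign in number 7-8.

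Without number 6, DESeq2 called 22 genes higher and 52 lower, and the pair of number 6 was then a measurement these calls had not used. Of the 52 lower genes, 24 reached 1 CPM in a library of number 6, and there 6 of the 24 were lower and 18 higher. A gene can pass that cut through 1 library alone, the one where it is higher, so the cut bears on the sign. With no such cut, 15 of the 52 were lower and 33 higher in number 6, where 47.6% and 52.2% of all genes were. Those counts take in genes under 1 CPM there. Of the 22 higher genes, 20 reached 1 CPM, and 10 were higher and 10 lower there, or 12 and 10 with no such cut. The lower set held epithelial and lung genes such as KRT5, MUC16, SLC34A2, SFTPB and NKX2-1, and the higher set NOTCH4, SPOCK1 and SNED1. SPOCK1, a testican of the matrix, differed by 2.75, 2.61 and 0.52 in numbers 4, 5 and 9 and by -0.35 in number 6. In number 7-8, 42 of the 52 lower genes were below unsorted cells, where 49.2% of all genes were. There 9 of the 22 higher genes were above unsorted cells, where 50.8% of all genes were. Of the 52, 2 did not pass the filter over the 4 pairs, so their signs in numbers 6 and 7-8 were not taken.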

How the data were processed

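The 15 libraries were bulk mRNA. The authors deposited raw counts per human gene symbol and a table of log2 values, which equal log2 of the size-factor-scaled count plus 1 within 5.15e-14 when recomputed. The submitters' processing notes list STAR, HTSeq, DESeq2, cutadapt and FastQC with build hg19. Their versions, and whether strand was used, are not given in the sources used here. Mouse is the labelled organism, so reads of the host that align to human genes may be counted, and their part was not tested.

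The counts went into edgeR 4.0.16 under R 4.3.3 (TMM, filterByExpr, robust quasi-likelihood fit, Benjamini-Hochberg threshold 0.05, two-sided). The fit held 8 libraries, with title number as a block and adhesion class. After the filter, 14749 of 25382 genes remained, with 99.94% of counts. Standard errors were derived from the F statistic. The biological coefficient of variation was 23.6%. DESeq2 1.42.0 and limma 3.58.1 (the latter also on the deposited log2 values) served as alternatives, and the edgeR fit was tested on simulated data. Intervals from counts cover counting error only. Same-numbered libraries deviated together from their class means (correlations 0.43, 0.29, 0.75 and 0.20 in numbers 4, 5, 6 and 9). This set number 6 apart but did not tell numbers 4, 5 and 9 from each other. Weakly adherent library 4 correlated at 0.39 with strongly adherent library 5. Weakly adherent library 5 correlated at 0.31 with strongly adherent library 4, and weakly adherent library 9 at 0.29 and 0.31 with strongly adherent libraries 4 and 5, above their own numbers. With strongly adherent library 6, weakly adherent libraries 4, 5 and 9 correlated at -0.49, -0.4 and -0.46. The pairing therefore rests on the numbers in the sample titles. No 2 libraries agreed within sampling noise.

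The comparison and the 44 gene lists were chosen with earlier results of these data known, so no list is independent evidence. Genes were named by a rule: the 12 higher and 12 lower genes of one sign in 4 of 4 numbers, at a mean of at least 1 CPM, with the largest smallest difference; up to 4 members per list of one sign in 4 of 4 by smallest p; and 6 preset genes, among them ITGB1, VIM and CDH1. Not all of these are printed. Other genes named, those called by DESeq2 and further list members, were chosen after their values were seen. No gene coordinates or sequences were used here.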

Additional observations from a re-analysis of the deposited data

Results flagged for a closer look

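In 7 of 70 sets of 4 differences examined, one number lay far from the others by Dixon's test at the 95% level. That level is set for about 1 set in 20 by chance, a rate that does not hold here, since the genes were chosen by the sign and size of their differences. In 4 of these the number was 5. NGFR differed by 7.60 in number 5, where strongly adherent library 5 was at 0.042 CPM. FBXL7, an F-box protein, differed by 5.76 in number 5, also from 0.042 CPM, and PI16, a peptidase inhibitor, by 2.78. ITGB1BP2, melusin, a muscle gene, differed by -4.74 in number 5. S100P differed by -2.20 in number 4. SEPT3, a septin, differed by -1.24 and TTC36 by -0.63 in number 9. Each of these 7 genes had been chosen for one sign in 4 of 4 numbers, and the number that stood apart was the one with the largest difference of that sign.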

How the results depend on the processing

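edgeR called 0 genes over the 4 pairs under other scalings (DESeq2 size factors, upper quartile, TMM without mitochondrial and muscle genes), other filters on low counts, all 15 libraries, and with each number left out. With no replicate block it also called 0, and genes at an unadjusted p under 0.05 fell from 647 to 333. That number was 213 to 1204 with a number left out and 1030 with all 15 libraries. DESeq2 with the replicate block called 11 genes over the 4 pairs, 74 without number 6 and 129 for the departure of number 6, and the cause was not tested.

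Genes higher in 4 of 4 numbers were 767 to 1038, and lower 693 to 991, under the other scalings, filters and prior count. The ends of both ranges came from the filters, with 13122 genes tested at the low end and 20141 at the high end. Requiring a difference of at least 0.25 in each number left 115 higher and 129 lower genes. Requiring each to lie beyond its 95% counting interval, an alternative added after seeing the data, left 216 higher and 95 lower. With a number left out the counts were 1348 to 2422 higher and 1225 to 2133 lower, where fewer numbers have to share a sign. DESeq2 size factors moved the median gene by at most 0.02 in any number, and left 9 mitochondrial, 8 cholesterol and 7 protease genes higher in 4 of 4. The mean difference in mitochondrial share was 1.4 to 3.59 points.

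Of 42 lists, 19 kept the direction of their median with each number left out. Of 828 values of 138 named genes under other settings, 820 kept their direction and 0 passed the threshold. The 8 others came from leaving out one number, where the ranges were -0.01 to 0.07 for ATP5B, -0.01 to 0.56 for RPS18, -0.61 to 0.02 for SLC7A5, -0.08 to 0.08 for CD44, -1.27 to 0.31 for CDH1 and -0.2 to 0.25 for MKI67. None of these genes had one sign in 4 of 4 numbers, for which most of the 138 were named. For a gene of one sign, leaving out a number could hardly turn the direction, so the 820 reflect that choice. CDH1 was above 0 without number 4 (0.15) or number 5 (0.31), and MKI67 without number 5 (0.25) or number 9 (0.04). With 4 pairs an exact sign-flip permutation test cannot go below p = 0.13, and genes under 1 CPM in number 6 give no sign there that can be read.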
